A study of Mus musculus with 3 samples.

Results

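Cathepsins are the main proteases of the lysosome, and cystatins are the proteins that block most of them. The 10 members described here were the rows named Ctss, Ctsb, Ctsd, Ctsz, Ctsh, Ctsc, Ctsl, Ctsw, Cst3 and Cst7 in the gene lists of the deposited matrices, out of 32285 genes, and each symbol was found once in each of the 3 libraries. They were chosen by name, and their levels were followed in monocytes, dendritic cells, B cells, NK cells and CD8 T cells. Peripheral blood mononuclear cells (PBMCs) of female C57BL/6 mice were profiled cell by cell with a droplet method that counts captured mRNA molecules as unique molecular identifiers (UMIs). The young library came from mice aged 8 weeks, the aged library from mice aged 16 months, and the aged-GA library from mice of 16 months that had received glycyrrhizic acid (GA), a saponin of liquorice root, by tail vein for 1 month, whereas controls received saline. The young mice were purchased and the aged mice were reared in the laboratory of the study, so age and origin cannot be told apart.

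There was 1 library per group. The study gives several mice behind each of them, but how their cells were combined is not described, and the files hold no label of the animal. Without replicate libraries no test between groups was possible, and every interval given below is a 95% interval that covers counting error only. Filters after those of the study, applied to each library, kept 8851 young, 10238 aged and 12648 aged-GA cells, with 48249945, 53770440 and 75832322 UMIs, and every series of 3 values below follows this order. The libraries shared 50 to 62 cell barcodes, pair by pair. Cells were placed in a class by counting marker genes, none of them a member, and cells that met the rule of several classes (4.17%, 7.84% and 7.87%, in the order young, aged, aged-GA) were left out. This gave 51 young, 1125 aged and 303 aged-GA monocytes, 2311, 4378 and 5661 B cells, 323, 261 and 273 NK cells, and 1340, 707 and 1402 CD8 T cells. The latter had UMIs of both Cd8a and Cd8b1 and none of Cd4. A further 2859, 925 and 1429 T cells met neither the CD8 nor the CD4 rule, so the CD8 T cells are only a part of those present. Dendritic cells numbered 0, 30 and 8, so that the young library gave no dendritic value and 14 of the 15 class-by-library values exist. Where a pair of values is given for dendritic cells or classical monocytes, it is aged followed by aged-GA. The median marker of its class was found in 51.0% to 60.8% of NK cells and in up to 82.4% of monocytes, 90.2% of B cells and 92.3% of CD8 T cells. The monocyte value is that of the 51 young cells. The middle markers were at 59.5% (Fn1) and 60.6% (Ccr2) in aged and 65.0% (Ace) and 71.0% (Adgre4) in aged-GA monocytes. In aged conventional dendritic cells the median marker, Cd209a, was found in 39.1% and the rarest, Xcr1, in 8.70%. Aged plasmacytoid cells ranged from 16.7% for Klk1 to all cells for Siglech and Tcf4. The rule for conventional dendritic cells required Flt3 and that for plasmacytoid ones Siglech, so finding these genes in all such cells was fixed in advance. No aged-GA conventional dendritic cell carried Clec10a or Snx22, and none of the plasmacytoid ones, which were a lone cell, carried Klk1 or Pacsin1.

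Most cathepsins are cysteine proteases made as inactive precursors and switched on by the acid of the endosome and lysosome. In cells that present antigen they trim proteins into peptides and cut the invariant chain (encoded by Cd74) away from class II molecules, a step in which cathepsin S leads in B cells and dendritic cells. In cytotoxic lymphocytes cathepsin C removes the short leader that keeps granzymes inactive, and cystatin F (encoded by Cst7), unlike most cystatins, acts inside the lysosome, where it blocks cathepsin C and cathepsin H among others. Cystatin C (encoded by Cst3) is secreted and blocks cathepsins S, B, L and H outside and at the surface of cells.

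On GRCm38, in the GENCODE annotation, Cst3 (chromosome 2, 148871722 to 148875692) and Cst7 (chromosome 2, 150570415 to 150578944) lie on the same chromosome, as does Ctsz (chromosome 2, 174427493 to 174439039). Ctsc (88278085 to 88310888) and Ctsd (142375911 to 142388038) lie on chromosome 7. The others are scattered, with Ctss on chromosome 3 (95526786 to 95556403), Ctsh on chromosome 9 (90054152 to 90076089), Ctsl on chromosome 13 (64359337 to 64370890), Ctsb on chromosome 14 (63122462 to 63145923) and Ctsw on chromosome 19 (5465043 to 5468507). The ends of Ctsb, Ctsz and Ctsw overlap protein-coding neighbours on the opposite strand (Fdft1, Nelfcd and Fibp). All are protein-coding genes, and all 10 gene IDs of the files matched the annotation.

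RefSeq promoter entries on GRCm38.p6 were found for 7 of the members. The 250 bases before the start of 3 of them are printed here because these genes marked different cells in the levels that follow. Ctss marked the monocytes, dendritic cells and B cells, and Cst7 the NK and memory CD8 T cells. Ctsc was highest in the classical monocytes of the aged and aged-GA libraries. Among lymphocytes it was highest in NK cells, whose levels lay below those of nonclassical monocytes. Capitals mark matches, on either strand, to the letters of motifs of factors known in these cells, namely GAGGAAGT for PU.1, TGTGGT for RUNX and GGTGTGA for T-box factors, and to the general GC box GGGCGG; each strand is read 5′ to 3′ towards the gene.
Ctss, chr3:95526536-95526785, plus strand: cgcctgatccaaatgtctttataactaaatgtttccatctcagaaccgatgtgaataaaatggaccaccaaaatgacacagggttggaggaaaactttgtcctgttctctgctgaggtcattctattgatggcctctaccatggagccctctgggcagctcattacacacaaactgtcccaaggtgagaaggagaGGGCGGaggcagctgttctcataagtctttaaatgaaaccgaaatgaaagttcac
Ctsc, chr7:88277835-88278084, plus strand: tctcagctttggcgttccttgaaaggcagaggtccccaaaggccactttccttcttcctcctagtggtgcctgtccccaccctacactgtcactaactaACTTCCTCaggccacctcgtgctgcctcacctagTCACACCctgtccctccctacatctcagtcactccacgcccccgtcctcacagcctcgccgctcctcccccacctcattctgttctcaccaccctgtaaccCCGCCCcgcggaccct
Cst7, chr2:150570165-150570414, plus strand: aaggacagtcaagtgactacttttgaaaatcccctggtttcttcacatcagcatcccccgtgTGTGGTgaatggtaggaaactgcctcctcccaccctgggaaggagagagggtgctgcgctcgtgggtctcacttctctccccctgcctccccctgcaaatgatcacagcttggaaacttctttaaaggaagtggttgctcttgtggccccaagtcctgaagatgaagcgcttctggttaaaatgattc
Counted from the start of the gene, the Ctss stretch held only a GC box at -55. The Ctsc stretch held a PU.1 match at -151, a T-box match at -117 and a GC box at -16, each on the opposite strand. The Cst7 stretch held a RUNX match at -188. Over 27025 promoters of the same length, 2.44% held the PU.1 letters, 3.31% the T-box letters, 14.2% the RUNX letters and 32.9% the GC box.

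Ctsd was the member with 2 matches to CACGTG, the palindromic E-box letters that are also the core of the element through which TFEB turns on lysosomal genes. They are shown as the stretches around positions -245 and -98, counted from the RefSeq start at 142387827. GENCODE starts Ctsd further upstream, at 142388038, so that the second stretch lies within the gene as GENCODE draws it.
Ctsd, chr7:142388057-142388077, minus strand: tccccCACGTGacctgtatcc
Ctsd, chr7:142387910-142387935, minus strand: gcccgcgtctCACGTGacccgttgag
These letters stood in 6.05% of all promoters of this length, and Ctsl, with a match at -236 from its RefSeq start at 64370520 and within the GENCODE gene, was the only other member among the 7 that held them. A match of letters describes the sequence and was not tested for binding.

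Each level is the share that a gene had of the UMIs of a class in a library, expressed as CPM, the usual count scaled for depth, so that a gene can be compared between classes and libraries but not with another gene. Cathepsin S, the invariant chain protease, was highest in monocytes, with levels of 1618, 1673 and 1592 CPM. In B cells it was 448, 411 and 433 CPM. Dendritic cells had 821 (interval 726 to 926) and 621 CPM (460 to 822). CD8 T cells had 110, 96.0 and 100 CPM, and NK cells at most 33.9 CPM. The order monocytes, dendritic cells, B cells, CD8 T cells, NK cells was the same in every library that had the class, and no neighbours in it overlapped in their intervals. After each cell was thinned to 500 UMIs, Ctss was found in 57.2% of aged monocytes and 3.07% of aged NK cells, whose median depths were 8452 and 3180 UMIs; without thinning the shares were 99.1% and 11.1%. Monocytes exceeded B cells by log2 ratios of 1.85, 2.03 and 1.88.

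Cathepsin L, which is best known for its role in the thymic epithelium, was low in blood. Monocytes had 22.6, 84.3 and 60.7 CPM, the first from 6 UMIs, and dendritic cells 70.8 and 406 CPM, from 23 and 32 UMIs. CD8 T cells had 19.5, 11.0 and 8.76 CPM, and B and NK cells lay between 7.22 and 10.1 CPM in all libraries. In the young library the intervals of monocytes and CD8 T cells overlapped (8.28 to 49.1 and 16.8 to 22.7 CPM), whereas in the aged library monocytes and dendritic cells overlapped and stood above the lymphocytes.

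Cathepsin B, an endopeptidase that also clips dipeptides from protein ends, was a monocyte transcript, with 1572, 890 and 1021 CPM. Lymphocytes were far lower: B cells had 34.2, 49.99 and 49.5 CPM, CD8 T cells 35.6, 55.4 and 45.5 CPM, and NK cells 29.1, 66.7 and 53.3 CPM. The intervals of B, NK and CD8 T cells overlapped with at least a neighbour in each library, so the order among the lymphocytes was not resolved throughout. Dendritic cells had 289 and 850 CPM, the latter from 8 cells (659 to 1079) and overlapping with monocytes.

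Cathepsin D, the aspartic protease of the group and one that cystatins do not block, had its highest level among the 5 classes in NK cells, at 569, 539 and 622 CPM. Monocytes had 124, 224 and 165 CPM and CD8 T cells 112, 181 and 167 CPM. The intervals of these classes overlapped in the young and aged-GA libraries, and in the aged library monocytes stood above CD8 T cells. B cells had 20.9, 27.2 and 24.8 CPM, and dendritic cells 27.7 and 101 CPM, from 9 and 8 UMIs. NK cells exceeded B cells by log2 ratios of 4.77, 4.31 and 4.65. Outside these classes, basophils, of which the young library had none, showed 1276 and 1444 CPM in the other two, and neutrophils 374, 571 and 598 CPM.

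Cathepsin Z, a carboxypeptidase, and cathepsin H, an aminopeptidase, shared a pattern in which monocytes, dendritic cells and B cells were high and NK and T cells low. Ctsz had 485, 563 and 482 CPM in monocytes, 566 and 723 in dendritic cells, 275, 222 and 256 in B cells, and no more than 43.2 CPM in NK or CD8 T cells. Ctsh had 278, 480 and 431 CPM in monocytes, 732 and 748 in dendritic cells, and 296, 284 and 349 in B cells. In NK and CD8 T cells Ctsh came to between 0.442 and 8.27 CPM, from 30 UMIs or fewer. In the young library monocytes and B cells overlapped in Ctsh (219 to 349 and 285 to 307 CPM), while in the aged library monocytes stood above B cells by a log2 ratio of 0.76 (0.70 to 0.82). Across the 14 class-by-library values, Ctsz and Ctsh had a Pearson r of 0.98, as a description of values that share libraries.

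Cathepsin C, the activator of granule proteases, was found in every class. Monocytes had 241, 514 and 405 CPM. NK cells had 197, 127 and 131 CPM, with intervals that overlapped with those of monocytes in the young library, B cells 70.6, 87.1 and 93.6 CPM, and CD8 T cells 57.4, 51.0 and 51.3 CPM. Aged dendritic cells had 58.5 CPM, from 19 UMIs, which overlapped with B and CD8 T cells. NK cells exceeded CD8 T cells by log2 ratios of 1.78 (1.54 to 2.01), 1.32 (1.00 to 1.64) and 1.36 (1.08 to 1.62).

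Cathepsin W and cystatin F were transcripts of cytotoxic lymphocytes. Ctsw, whose product resides in the endoplasmic reticulum of NK and CD8 T cells, had 623, 558 and 612 CPM in NK cells and 185, 289 and 276 CPM in CD8 T cells. B cells had 1.93, 3.05 and 3.13 CPM, and NK cells exceeded them by log2 ratios of 8.33, 7.51 and 7.61. Cst7 had 147, 95.6 and 123 CPM in NK cells and 30.8, 49.9 and 77.8 CPM in CD8 T cells, against 0.322, 0.293 and 0.458 CPM in B cells. No Cst7 UMI was found in the dendritic cells, where 3 UMIs, the limit that a count of 0 allows, would be 9.23 and 38.0 CPM. The young monocytes had no UMI of Cst7 or Ctsw, with a limit of 11.3 CPM. After thinning, Cst7 was found in 8.67% of young NK cells and in 0 of 2311 young B cells, which allows a share of up to 0.13%, with median depths of 3042 and 3413 UMIs and unthinned shares of 36.5% and 0.0865%. The difference between NK and CD8 T cells in Cst7 was smaller in the aged libraries, with log2 ratios of 2.26 (1.97 to 2.54), 0.94 (0.58 to 1.29) and 0.66 (0.39 to 0.93). CD4 T cells had 36.3, 42.4 and 48.6 CPM of Ctsw, and the log2 ratios of CD8 over CD4 T cells were 2.35, 2.77 and 2.51. Their Cst7 levels were 3.23, 16.6 and 13.9 CPM, and the 108 aged basophils held 10 UMIs of Cst7.

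Cystatin C, the secreted inhibitor, was highest in dendritic cells, with levels of 10531 and 9004 CPM. Of the aged-GA UMIs, 47.5% came from 1 of the 8 cells, and the level was 5748 CPM without it. Monocytes had 4341, 3455 and 3400 CPM, B cells 213, 248 and 222 CPM, NK cells 163, 169 and 148 CPM, and CD8 T cells 76.6, 106 and 93.5 CPM. This order did not change between libraries, and monocytes exceeded B cells by log2 ratios of 4.35, 3.80 and 3.94. Within dendritic cells of the aged library, the 23 conventional cells had 12236 CPM and the 6 plasmacytoid cells 3859 CPM of Cst3, a log2 ratio of 1.66 (1.47 to 1.87). The plasmacytoid cells had the higher Ctsb, 632 against 182 CPM, and Ctsl, 222 against 34.9 CPM, the latter from 13 and 9 UMIs. Another 90 aged and 35 aged-GA cells met the rules of both monocytes and dendritic cells and were in no class; their Cst3 level was 3101 and 3159 CPM, closer to that of monocytes than to that of dendritic cells, and their Ctsh level 607 and 537 CPM, between the 2.

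**Figure D1:**
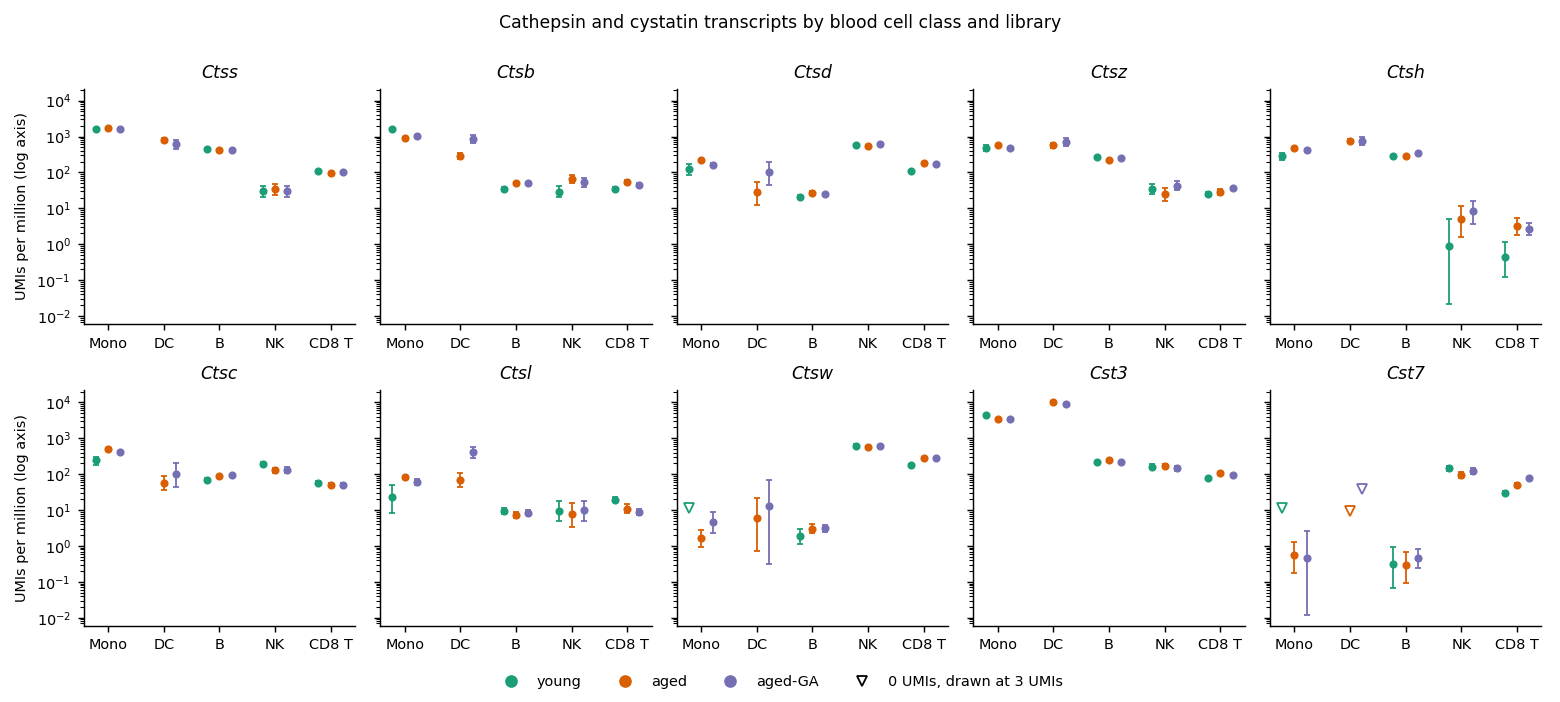
Level of each member (CPM, log axis) in the 5 classes of each library, with bars for the exact Poisson 95% interval; open triangles are drawn at 3 UMIs where none was found. Ctsw and Cst7 were high in NK and CD8 T cells and near 0 elsewhere, Ctsh and Ctsz were high in monocytes, dendritic and B cells, and Cst3 was highest in dendritic cells.

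Monocytes fell into classical and nonclassical cells, and in the aged library the interval of the difference left out 0 for all of the 8 members counted there, as it did in the aged-GA library for all but Ctsd. The young library held 2 classical and 47 nonclassical monocytes, the aged library 656 and 455, and the aged-GA library 105 and 192. Ctsb was higher in nonclassical monocytes, at 1659, 1738 and 1529 CPM, than in classical cells, at 580 and 471 CPM, log2 ratios of 1.58 (1.52 to 1.65) and 1.70 (1.55 to 1.85). Cst3 was also higher in nonclassical cells, with 4513, 6140 and 4398 CPM against 2454 and 2384 CPM in classical cells, log2 ratios of 1.32 and 0.88. The opposite held for Ctsc, with 218, 168 and 179 CPM in nonclassical and 638 and 638 CPM in classical cells, log2 ratios of -1.93 and -1.84. Ctsh followed Ctsc, with 243, 223 and 256 CPM against 576 and 617 CPM, and so did Ctsl, with log2 ratios of -1.77 and -0.86. The ratios of Ctss (-0.34 and -0.26) and Ctsz (-0.37 and -0.37) were smaller.

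CD8 T cells fell into naive and memory cells, 1162, 305 and 591 naive and 93, 335 and 643 memory cells. Between 67 and 168 cells per library had as many naive as memory markers and were left out of both, and 234 to 568 lay within 1 marker of the border, so these groups are ranges and not sharp types. Cst7 was higher in memory cells, at 75.9, 69.6 and 109 CPM, than in naive cells, at 26.5, 31.4 and 38.1 CPM, log2 ratios of 1.52, 1.15 and 1.52. Ctsd was 173, 271 and 209 CPM in memory and 108, 103 and 116 CPM in naive cells, and Ctsw 221, 337 and 337 CPM in memory and 177, 237 and 192 CPM in naive cells. Both were thus higher in memory cells in all 3 libraries, with log2 ratios of 0.67, 1.39 and 0.85 for Ctsd and 0.32, 0.51 and 0.81 for Ctsw. With a lead of 2 markers asked for, which left 48 of the 93 young memory cells, the young Ctsd ratio was 1.31. Ctss lay on the other side, with log2 ratios of -0.16 (-0.52 to 0.18), -0.50 (-0.80 to -0.21) and -0.40 (-0.59 to -0.22). Against memory CD8 T cells, NK cells still had more Ctsc, by 1.71, 1.11 and 1.27, and more Ctsd, by 1.72, 0.99 and 1.57, while the interval for Cst7 in the aged-GA library held 0 (0.17, -0.11 to 0.45).

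**Figure D2:**
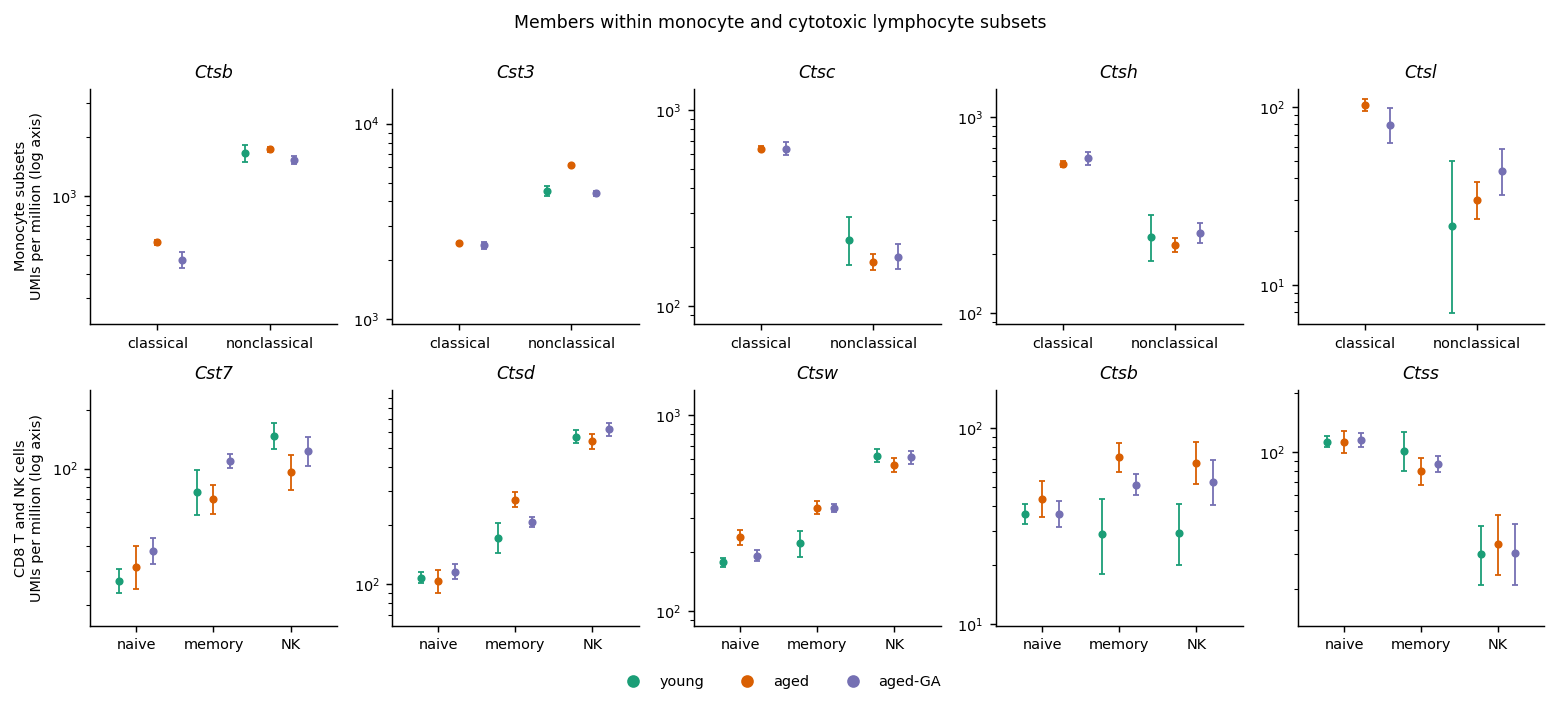
Level of members (CPM, log axes that do not start at 0) in classical and nonclassical monocytes and in naive CD8 T, memory CD8 T and NK cells, by library, with exact Poisson 95% intervals; the 2 classical cells of the young library are not drawn. Ctsb and Cst3 stood higher and Ctsc lower in nonclassical monocytes, and Cst7 stood lower in naive than in memory CD8 T cells in each library.

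To describe aging, each level in aged cells was set against young cells of the same class, for pairs of a member and a class with at least 100 UMIs over both libraries. Of 40 pairs, 31 had that many UMIs, and 3 of these were past 2-fold, all higher in aged mice. In monocytes 2 of 8 members were past 2-fold, where 18.7% of all counted genes were. In NK cells 1 of 6 was, against 2.61% of genes, and none of 8 members in B cells (5.09% of genes) or of 9 in CD8 T cells (6.77%). The median log2 ratio of the 31 pairs was 0.15, and the medians over all counted genes were 0.03 in monocytes, 0.19 in B cells, 0.00 in NK cells and 0.26 in CD8 T cells.

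The 2 members past 2-fold in monocytes were Ctsc, with a log2 ratio of 1.10 (0.74 to 1.47), and Ctsl, with 1.90 (0.77 to 3.35) from 6 young UMIs. Ctsd (0.85, 0.35 to 1.39) and Ctsh (0.79, 0.46 to 1.14) were also above 0, Ctsb was below (-0.82, -0.96 to -0.68), Cst3 was below (-0.33, -0.41 to -0.24), and Ctss stood at 0.05 (-0.09 to 0.19). Beside these values, 47 of the 51 young monocytes were nonclassical. Among nonclassical monocytes alone, none of the 7 counted members was past 2-fold, where 5.42% of genes were: Ctsc was at -0.37 (-0.80 to 0.08), Ctsh at -0.13 (-0.52 to 0.29), Ctsb at 0.07 (-0.08 to 0.22) and Ctsd at 0.21 (-0.34 to 0.81). Cst3 was then the only counted member whose interval left out 0, at 0.44 (0.35 to 0.54), and its sign was opposite to that in all monocytes. The classical monocytes of the young library, 2 cells, were too few for a comparison.

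In B cells the members moved little. Ctss was at -0.12, Ctsz at -0.31, Ctsh at -0.06, Ctsc at 0.30, Cst3 at 0.22, Ctsd at 0.38 and Ctsl at -0.41 (-0.81 to 0.00), and the largest log2 ratio was that of Ctsb, 0.55 (0.36 to 0.74), from 34.2 to 49.99 CPM. Lyz2, a transcript of myeloid cells, came to 2.47, 120 and 34.7 CPM in B cells. All of it was taken as carried over from monocytes, with members in the proportions of all monocytes of the same library. Such RNA would bring 10.8% of the Ctsb and 8.47% of the Cst3 of aged B cells. These shares are not upper limits, because the proportions differ between monocytes. Aged monocytes had 19668 CPM of Lyz2 and 890 CPM of Ctsb, and young ones, mostly nonclassical, had 9457 and 1572 CPM. Carried Cst3 would be 1.13 CPM in young and 21.0 CPM in aged B cells, beside measured levels of 213 and 248 CPM. Carried Ctsb would be 0.411 and 5.41 CPM, beside 34.2 and 49.99 CPM. In CD8 T cells carried Cst3 would be 0.456 and 14.4 CPM, beside 76.6 and 106 CPM. The part of such RNA in the ratios was not tested. Carried in this way, monocyte RNA would bring 60.5% of the few Ctsh UMIs in aged NK and CD8 T cells and 31.0% of the Ctss in aged NK cells, so the low ends of those genes in these cells are not read as levels of the cells.

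In NK cells Ctsc and Cst7 were both lower in aged than in young mice, with log2 ratios of -0.63 and -0.62 and intervals that left out 0, the protease and its inhibitor by nearly the same amount. Ctsw, at -0.16 (-0.32 to 0.00), and Ctsd, at -0.08 (-0.25 to 0.09), changed less. Ctsb was past 2-fold higher, at 1.20 (0.57 to 1.84), from 33 young and 67 aged UMIs, which is exactly the minimum of 100. In NK cells with at most 1% of UMIs from haemoglobin, Ctsb was 27.5 CPM in young and 70.5 CPM in aged mice.

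In CD8 T cells 6 of the 9 counted members were above 0. Cst7 (0.70, 0.44 to 0.95), Ctsd (0.69, 0.56 to 0.83), Ctsw (0.64, 0.54 to 0.75) and Ctsb (0.64, 0.40 to 0.88) led, and Cst3 was at 0.47. Ctsl was lower, at -0.82 (-1.31 to -0.36), and Ctss at -0.19. Memory cells made up 93 of 1340 young and 335 of 707 aged CD8 T cells, and within each subset some of these ratios were smaller. Cst7 was at 0.24 (-0.19 to 0.65) in naive and -0.13 (-0.58 to 0.34) in memory cells, and Ctsd at -0.07 in naive but 0.65 (0.37 to 0.94) in memory cells. Ctsw stayed above 0 in both, at 0.42 (0.27 to 0.57) and 0.61 (0.36 to 0.86), and Ctsl was -0.95 (-1.66 to -0.30) in naive cells. The Ctsd value in memory cells depends on the border between the subsets. With a lead of 2 markers, the memory over naive ratios of Ctsd were 1.31 in young and 1.58 in aged mice. Those ratios were 0.67 and 1.39 under the main rule, and the stricter rule left 48 of the 93 young memory cells. In memory cells 1 of 7 members was past 2-fold, Ctsb at 1.30 (0.65 to 2.02), against 7.55% of genes, and in naive cells none of 9 was, against 3.31%. In CD4 T cells, outside the classes followed here, 1 of 7 members was past 2-fold, against 9.16% of genes: Ctsb, at 1.02 (0.79 to 1.25), with levels of 56.4, 115 and 108 CPM. In CD4 T cells with at most 1% of UMIs from haemoglobin, Ctsb was 55.84 CPM in young and 111.57 CPM in aged mice. That difference was just under 2-fold, so this call lay at the threshold.

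**Figure D3:**
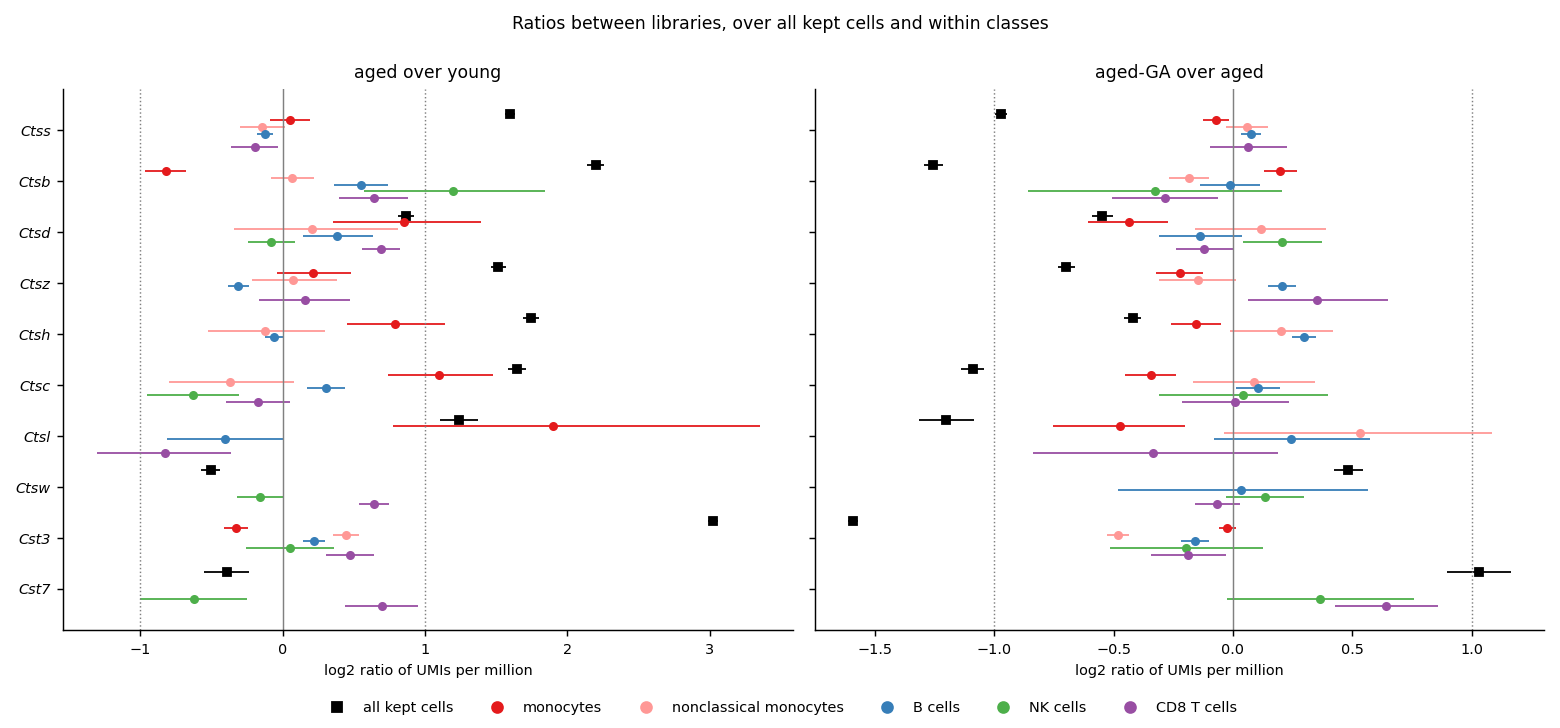
Log2 ratio of each counted member between libraries (left, aged over young; right, aged-GA over aged) over all kept cells and by class, with exact binomial 95% intervals; dotted lines mark 2-fold, and dendritic cells are not drawn. The monocyte ratios of aged over young spread from -0.82 for Ctsb to 1.90 for Ctsl, while those of aged-GA over aged lay between -0.47 and 0.20.

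To describe GA treatment, aged-GA cells were set against aged cells of the same class, which share the aged library with the comparison above. Of 50 pairs 37 could be counted, and 1 was past 2-fold. It was Ctsb in dendritic cells, at 1.55 (1.08 to 2.02), with 8 cells against 30, where 1 of 5 members and 6.13% of genes were past 2-fold. Of its aged-GA UMIs, 28.4% came from 1 cell, and the classes held 23 conventional and 6 plasmacytoid cells in the aged and 4 and 1 in the aged-GA library. The remaining cells of the 30 and the 8 met both the conventional and the plasmacytoid rule and were in neither subset. In conventional cells alone Ctsb was 182 and 288 CPM, from 47 and 13 UMIs, too few to be counted. In monocytes none of 8 members was (1.97% of genes), in B cells none of 9 (0.383%), in NK cells none of 6 (0.399%) and in CD8 T cells none of 9 (0.69%). The median log2 ratio of the 37 pairs was -0.01, with 18 above 0 and 19 below.

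In monocytes 7 of the 8 counted members were below 0 in aged-GA mice, with Ctsl at -0.47, Ctsd at -0.44 (-0.61 to -0.27), Ctsc at -0.34 (-0.45 to -0.24), Ctsz at -0.22, Ctsh at -0.16, Ctss at -0.07 and Cst3 at -0.02, and Ctsb was at 0.20 (0.13 to 0.27). Beside these values, 656 of 1125 aged and 105 of 303 aged-GA monocytes were classical. Ctsb was lower in both subsets, at -0.30 (-0.44 to -0.16) in classical and -0.18 (-0.27 to -0.10) in nonclassical monocytes, against 0.20 over all monocytes. Ctsc was at 0.00 (-0.12 to 0.12) in classical and 0.09 (-0.17 to 0.34) in nonclassical cells. Cst3 in nonclassical cells was at -0.48 (-0.53 to -0.43), from 6140 to 4398 CPM, next to 4513 CPM in young mice, and only 3.99% of the genes counted there had a lower ratio. Ctsd was at -0.54 (-0.77 to -0.31) in classical and 0.12 (-0.16 to 0.39) in nonclassical cells. None of the 8 members counted in either subset was past 2-fold, where 1.69% and 0.502% of genes were.

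In CD8 T cells Cst7 was the member with the largest ratio, at 0.64 (0.43 to 0.86), from 49.9 to 77.8 CPM, and 98.8% of counted genes had a lower ratio. It was 0.65 (0.38 to 0.93) in memory cells and 0.28 (-0.14 to 0.72) in naive cells, where 1.17% and 0.206% of genes were past 2-fold and none of the 8 members counted in each. Its target Ctsc was at 0.01 (-0.21 to 0.24) in CD8 T cells. In B cells Ctsh was at 0.30 (0.25 to 0.35) and Ctsz at 0.21 (0.15 to 0.26), beside young levels of 296 and 275 CPM, and Cst3 was at -0.16. In NK cells Ctsd was at 0.21 (0.04 to 0.37), Cst7 at 0.36 (-0.02 to 0.76) and Ctsb at -0.32 (-0.86 to 0.20).

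Summed over all kept cells, the members gave other ratios than within classes. In such sums, fewer cells of a type and less RNA per cell cannot be told apart. Cst3 had 133, 1078 and 357 CPM, Ctsb 56.1, 258 and 108 CPM, and Ctss 193, 586 and 299 CPM. Aged over young, 7 of the 10 members were past 2-fold, all higher, against 22.8% of genes, with log2 ratios from 3.02 for Cst3, 2.20 for Ctsb and 1.75 for Ctsh down to 1.24 for Ctsl, and with Ctsc, Ctss and Ctsz between. Ctsw and Cst7, which were highest in NK and CD8 T cells, were at -0.51 and -0.39. Aged-GA over aged, 5 were past 2-fold, against 7.21% of genes: Cst3 (-1.59), Ctsb (-1.26), Ctsl (-1.20) and Ctsc (-1.09) were lower and Cst7 (1.03) higher.

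Monocytes held 0.551%, 17.0% and 2.78% of the UMIs of all kept cells. They held 18.0%, 54.6% and 26.4% of the Cst3 UMIs, 15.4%, 58.8% and 26.3% of the Ctsb UMIs, and 4.61%, 48.6% and 14.8% of the Ctss UMIs. B cells held 82.8%, 38.9% and 69.9% of the Ctsh UMIs and 63.7%, 29.5% and 60.2% of the Ctsz UMIs. A part of the UMIs of Ctsw and Cst7 came from cells of other, several or no class. For Ctsw, CD8 T cells held 39.7%, 39.6% and 47.4% and NK cells 16.8%, 17.0% and 10.2%. Without monocytes, dendritic cells and neutrophils, the Cst3 level of the remaining cells, those of several or no class included, was 109, 501 and 249 CPM.

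**Figure D4:**
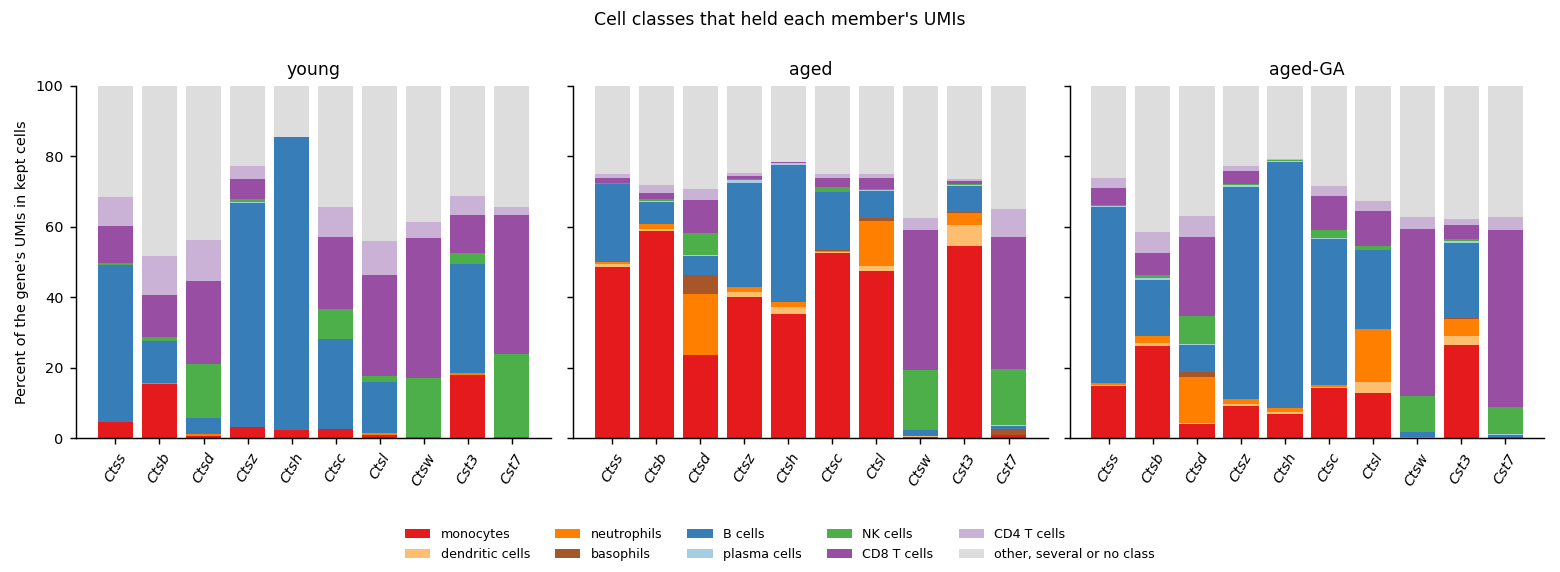
Share of the UMIs of each member (percent of the gene's UMIs in all kept cells) that came from each class, by library. Monocytes held 54.6% of the Cst3 UMIs in the aged library and 18.0% in the young library, while CD8 T cells held more of the Ctsw and Cst7 UMIs than any other named class in each library (39.4% of Cst7 in the young library).

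The other genes of the lysosome and its partners were counted in the same way. In aged over young, 18.7% of all counted genes were past 2-fold in monocytes, 5.09% in B cells, 2.61% in NK cells and 6.77% in CD8 T cells, and in aged-GA over aged 1.97%, 0.383%, 0.399% and 0.69%, and the counts of each list stand beside these shares. Of 7 other cathepsins and legumain (Lgmn, the asparaginyl protease), 3 could be counted in monocytes and 4 in B cells, and aged over young only Ctso in monocytes was past 2-fold, at 1.12 (-0.75 to 4.18) from 2 young UMIs; aged-GA over aged none was, nor was any in NK and CD8 T cells in either comparison. Of 14 other cystatins and stefins 13 were in the files and only Cstb, an inhibitor that acts in the cytosol, could be counted, in each of these 4 classes. In monocytes Cstb was at 0.73 (0.26 to 1.25) in aged over young and -0.90 (-1.09 to -0.71) in aged-GA over aged. Within nonclassical monocytes it was at -0.61 (-1.22 to 0.06) and -0.08 (-0.50 to 0.33). Within classical monocytes Cstb was at -0.64 in aged-GA over aged. Of 24 lysosomal hydrolases and their cofactors 23 were counted in monocytes, 24 in B cells, 6 in NK cells and 18 in CD8 T cells in aged over young. Past 2-fold were 4 in monocytes, all higher, led by Glb1 (1.88, from 1 young UMI) and Npc2 (1.12), and 1 in CD8 T cells, Arsb (1.37); the share in monocytes was near that of all genes. Aged-GA over aged, none of 24, 24, 6 and 20 was. Of 21 genes of the lysosomal membrane, its transport and its control, 18, 19, 9 and 16 were counted in aged over young, and 1 in monocytes (Mitf, 1.16, from 2 young UMIs), 1 in B cells (Mcoln1, 1.05) and 2 in CD8 T cells (Igf2r and Gnptab, 1.20 and 1.37) were past 2-fold, all higher. Aged-GA over aged, none of 18, 19, 9 and 18 was. The medians of the hydrolases in monocytes were 0.45 and 0.00, beside 0.03 and 0.08 over all genes. In nonclassical monocytes alone the aged over young median was -0.17, and none of the 17 hydrolases counted there was past 2-fold.

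Class II molecules and granule proteases are the partners and substrates of the members. Of 7 genes of class II molecules and the invariant chain, 6 in monocytes and 7 in B cells were counted, and none was past 2-fold in aged over young. In nonclassical monocytes alone 2 of 5 were higher, against 5.42% of genes past 2-fold, and the median log2 ratio was 0.62. In CD8 T cells 4 of 5 were higher, led by H2-Eb1 (2.84) and H2-Ab1 (2.06), while Cd79a, a B cell transcript, was found in 2.01%, 8.06% and 15.9% of CD8 T cells. Aged-GA over aged, 4 of 6 were higher in monocytes, led by H2-Eb1 (2.26) and H2-Aa (2.25), none of 7 in B cells, none of 5 in CD8 T cells, and 1 of 4 in NK cells (Cd74, 1.55). Within subsets 5 of 6 were higher in classical and 3 of 5 in nonclassical monocytes, against 1.69% and 0.502% of genes past 2-fold. The top 5 monocytes held 43.5% of the H2-Aa UMIs of aged-GA monocytes, and Cd79a was found in 10.0% of aged and 18.8% of aged-GA monocytes; the part of these in the ratios was not tested. Ctss, the protease of the same pathway, was at -0.07 in those monocytes.

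The list of 7 granule genes held proteases that cathepsin C activates and Mpo, which encodes a peroxidase and not a protease. In CD8 T cells 4 were counted, and all 4 were higher in aged than in young mice, against 6.77% of genes past 2-fold. They were led by Gzmk (3.95) and Gzmb (2.34), while Ctsc itself was at -0.17 (-0.40 to 0.05). Aged-GA over aged, 2 of the 4 were lower, Gzma (-1.84) and Gzmb (-1.35), against 0.69% of genes. Within memory CD8 T cells 2 of 4 were higher in aged mice, against 7.55% of genes past 2-fold, and 2 of 4 lower in aged-GA mice, against 1.17%. Naive CD8 T cells went the other way in aged over young: the 1 gene counted was lower, at -1.13, against 3.31% of genes. Aged-GA over aged, none of the 2 counted in naive cells was past 2-fold, against 0.206%. In NK cells none of the 2 counted was past 2-fold in either comparison. In monocytes 2 were counted: Prtn3, with no UMI in the 51 young cells, had 129 CPM in the aged and 26.6 CPM in the GA-treated library, and Gzma had 3.76, 11.4 and 86.8 CPM. Classical cells made up 2 of the 51 young, 656 of the 1125 aged and 105 of the 303 aged-GA monocytes. The part of this make-up in the levels of Prtn3 and Gzma was not tested. Both were past 2-fold in each comparison, against 18.7% and 1.97% of genes. In B cells the only one counted was Gzma, at 1.48 and -1.26, against 5.09% and 0.383% of genes past 2-fold. Whether the Gzma UMIs of monocytes and B cells came from carried RNA of cytotoxic lymphocytes or from doublets was not tested, so they are not read as levels of these cells. Of 6 serpins, inhibitors of granule and other proteases, 4 were counted in CD8 T cells, of which Serpina3g (2.82) and Serpinb9, the inhibitor of granzyme B (1.49), were past 2-fold higher in aged mice, and none was in aged-GA over aged. Within subsets, aged over young, 1 of 3 was higher in memory cells, against 7.55% of genes past 2-fold. In naive cells none of 2 was, against 3.31%. Of the 2, 4 and 3 serpins counted in monocytes, B cells and NK cells, none was past 2-fold in either comparison.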

How the data were processed

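PBMCs of 1 young, 1 aged and 1 aged-GA library were analysed. The authors mapped reads with Cell Ranger (mm10 in the submitters' processing notes, version 5.0.0 per the file headers; the methods name another version) and deposited raw UMI counts per gene and barcode, without normalization. The study filtered the aggregated libraries. Here each library was filtered on its own, which left more young and aged-GA and fewer aged cells than the study states. Barcodes were kept from 200 genes up to 90% of the largest number in their library, if mitochondrial UMIs made up 7.5% or less (median 4671, 3810.5 and 4752 UMIs in young, aged and aged-GA cells). The members and lists were chosen with earlier results of these data known, and the thresholds of the marker rules were set after marker counts were seen. A class needed at least 5 of 12 monocyte, 4 of 10 B cell, 3 of 8 NK cell or 3 of 5 T cell markers, and NK cells at most 1 T cell marker. Dendritic cells needed 3 of 9 conventional markers with Flt3 among them, or 3 of 8 plasmacytoid markers with Siglech among them. CD8 T cells needed both Cd8a and Cd8b1 and no Cd4, and CD4 T cells needed Cd4 and neither Cd8a nor Cd8b1. Subsets of monocytes and CD8 T cells were set by whichever markers were more numerous.

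UMIs were summed per class and library as CPM, with exact Poisson intervals. Ratios are log2 with exact binomial intervals, and a ratio counted if the UMIs of both libraries came to 100 or more; a gene at 0 in a library was set to 3 counts in shares over genes. Named genes were the members, the markers, listed transcripts of other cells, for each list at most the 2 largest ratios in each direction, and the 2 genes most like each member. Doublets were scored with Scrublet in scanpy 1.11.5; automatic calls were 437 young, 451 aged and 0 aged-GA cells, so the caller did not work in the last, and called cells were left in. Ratios and thinning were tested on simulated data (numpy 2.4.6, scipy 1.17.1). Alternatives changed the filters, doublets, classes, scaling, minimum and pseudocount. Some genes that these rules would name are not reported here.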

Additional observations from a re-analysis of the deposited data

Results flagged for a closer look

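Barcodes with fewer than 200 genes and over 50% haemoglobin UMIs, which no comparison used, numbered 941, 5460 and 3812 (young, aged, aged-GA, here and below), and they carried members above the limit that a count of 0 allows. Ctsb had 905, 813 and 708 CPM of the UMIs other than haemoglobin. Ctsd had 21.2, 53.8 and 40.4 CPM, and Cst3 21.2, 257 and 120 CPM. The Ctsb intervals of the young (812 to 1006 CPM) and aged-GA (655 to 764 CPM) libraries did not overlap, and Cst3 differed by more between the libraries. Lyz2 moved with Cst3, at 5.29, 1494 and 420 CPM in the same barcodes, and its part was not tested. The kept barcodes of no class that were mostly haemoglobin, 347, 229 and 1022 of them, had 1012, 1002 and 1083 CPM of Ctsb.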

How the results depend on the processing

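No paired analysis was possible because each group had 1 library. For aged over young, the count of pairs past 2-fold was 3, and 2 to 4 under 13 of 15 alternatives; it was 6 with no minimum of UMIs and a pseudocount of 1 CPM, and 1 with nonclassical monocytes in place of monocytes, an alternative added after seeing the data. For aged-GA over aged, the count was 1, and 1 under 12 of 15 alternatives; it was 3 with cells of several classes kept in 1, 3 with a minimum of 20 UMIs, and 4 with no minimum and a pseudocount of 1 CPM. Also added after seeing the data were a Scrublet score over 0.2, cells with at most 1% haemoglobin, and leaving out the cell with the most UMIs of the member. Ctsd in monocytes, aged over young, was 1.09 with cells of several classes kept and 1.01 without its top cell, and Ctsh 1.05 without its top cell, each past 2-fold. Ctsb in NK cells was 0.97 with a pseudocount of 10 CPM, and fell under 100 UMIs with at least 500 genes per cell, without Scrublet calls and at most 1% haemoglobin. Ctsl in CD8 T cells was -1.09 under median-of-ratios scaling. The causes were not tested. The largest move of a level was Ctsd in aged-GA B cells, 24.8 to 40.8 CPM with cells of several classes kept. Depth limits Ctsl, Ctsw and Cst7 outside the classes that hold them, and all values of young monocytes and dendritic cells.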

Other observations

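Genes with levels most similar to each member were found over the 14 class-by-library values, among 5051 genes, by Pearson r of log2(CPM + 10). They were Pqlc1 and Plac8 for Ctss (r of 0.96 each), Gdpd3 for Ctsb (0.99), Slc9a3r1 and Cript for Ctsd (0.95 and 0.94), Rnase6 and Sgk3 for Ctsz (0.98 each), and Ly86 and Cd180 for Ctsh (0.99 each). They were Gstm1 and Tcn2 for Ctsc (0.97 and 0.96), Clec10a and Cds1 for Ctsl (0.98 and 0.97), Gata3 and Txk for Ctsw (0.99 each), Asah1 and Plbd1 for Cst3 (0.99 each), and Gm33104 and Il2rb for Cst7 (0.99 each). Clec10a and Il2rb were markers used to place cells. The values share libraries, and levels of a few classes set each r, so they are a description only. Among the members themselves, Ctsw and Cst7 had an r of 0.99 and Ctss and Ctsw of -0.94.

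Haemoglobin made up 2.67%, 8.75% and 8.85% of the UMIs of CD4 T cells (young, aged, aged-GA). The share of Ctsb that it would bring was estimated from the Ctsb of the red cell barcodes per haemoglobin UMI. The largest estimate was 2.87% in CD4 T cells and 8.41% among the B, NK and CD8 T cell values. These shares are not upper limits, and the part of such RNA in the ratios was not tested.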
